A study of Homo sapiens with 10 samples.

Results

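The stretches described here are 3 gene-poor parts of the human genome, taken as whole Giemsa bands on hg19. They are 4q28.3 (chromosome 4, 131100001 to 139500000, 8.4 Mb), 4q32 (chromosome 4, 155600001 to 170100000, 14.5 Mb, bands q32.1 to q32.3) and 13q21 (chromosome 13, 55300001 to 73300000, 18 Mb, bands q21.1 to q21.33). Their members are the acetylation islands, the intervals that an island caller found enriched, whose midpoint fell inside a stretch. There were 7985 such islands of 778773 in 9 lists, with 1850 in 4q28.3, 3616 in 4q32 and 2519 in 13q21. By mark, 4084 were H4K16ac, 2674 H3K9ac and 1227 H3K27ac islands. The bands were selected on measured values: changes in depth-scaled reads per Giemsa band in these same libraries, of H4K16ac above all, were known at the time. The changes over time given below are therefore descriptions, and no test was made on them.

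The islands came from CUT&RUN on 200000 cells per reaction, in which a nuclease tethered to an antibody cuts out the bound chromatin for sequencing. The cells were immortalized human astrocytes (IHA), an SV40-immortalised fetal line. Cells given doxycycline at 1 µg/ml for 2 days (2d-Dox) or 7 days (7d-Dox) carry the label IDH1-R132H, and untreated cells (noDox) the label WT IDH1. Each mark and time had 1 library, and 1 noDox library made with an HRP secondary antibody served as the negative control for all 9 lists. IDH1-R132H is a glioma-associated form of isocitrate dehydrogenase whose product is 2-hydroxyglutarate; the series compares these marks before and after its induction. Doxycycline was not given to cells lacking the mutant enzyme in any library, so the drug and time in culture cannot be told apart from IDH1-R132H. No value below has replicate error.

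Histone acetylation neutralises the charge of lysines and loosens contacts between nucleosomes. Active promoters and enhancers carry H3K9ac and H3K27ac, while H4K16ac lies over broader domains and hinders compaction of the chromatin fibre. Dark Giemsa bands are AT-rich, poor in genes, late in replication and compact. The genes that map to these bands include many for neurons: the cell adhesion protocadherins PCDH10 and PCDH18 in 4q28.3, PCDH17 in 13q21.1, PCDH20 in 13q21.2 and PCDH9 in 13q21.32, and the glutamate receptor subunit GRIA2 in 4q32.1. Others are SLC7A11, a cystine transporter, in 4q28.3, PDGFC, a growth factor, in 4q32.1, PALLD, a cytoskeletal protein, in 4q32.3, and DACH1, a transcription regulator, in 13q21.33. In RefSeq's gene order on GRCh38.p14 there are 4 protein-coding genes from PCDH10 to SLC7A11, 9 from PCDH17 to DACH1 and 35 from PDGFC to PALLD. By this order 4q32 was the least gene-poor of the stretches. Islands were not assigned to genes, since the gene table at hand is on another build than the files.

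Depth differed between libraries and is known only relative to the HRP library. For noDox, 2d-Dox and 7d-Dox, H3K9ac libraries were 3.05, 4.17 and 4.88 times its size. H3K27ac libraries were 3.98, 3.15 and 1.49 times, and H4K16ac libraries 2.53, 3.08 and 7.88 times, its size. Each island's antibody reads were divided by this relative size, and levels below are such reads per library size. A summed level follows how much sequence was called, which in turn follows depth, so called length and reads per kb are given for each mark too. Intervals at 95% are exact and cover counting error only, since PCR copies cannot be told from separate molecules.

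The stretches were unevenly acetylated, and one whole band was almost empty. In 13q21.1, the dark band of 4.3 Mb to which PCDH17 maps, no H3K9ac and no H4K16ac island was listed at any time. H3K27ac had 0 islands there in noDox, 1 at 2d-Dox (25 reads) and 2 at 7d-Dox (18 and 17 reads). The 3 longest spans without an island in any list all lay in 13q21. They ran over 2.20 Mb (chromosome 13, 57227201 to 59429400), 1.42 Mb (55300001 to 56724000) and 0.918 Mb (61166801 to 62085200). In 4q28.3 the longest such span was 0.323 Mb, and every one of its 17 windows of 500 kb held H3K9ac and H4K16ac islands at all 3 times. In 13q21, by contrast, 24, 22 and 21 of 36 windows held an H4K16ac island at noDox, 2d-Dox and 7d-Dox.

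H4K16ac islands covered 6.41% of the stretches in noDox, 12.2% at 2d-Dox and 20.8% at 7d-Dox, against 9.13%, 10.98% and 19.3% of the rest of the genome. The length of the rest was that of whole chromosomes. Assembly gaps, where no island can be called, were not taken out, so its shares are somewhat low. The stretches lay below the rest of the genome in noDox. The differences at the doxycycline times are too small to say, on this basis, that the stretches lay above it. In the other darkest Giemsa bands the shares were 5.31%, 8.27% and 14.1%. Between bands of the stretches coverage at 7d-Dox ran from 0 in 13q21.1 and 4.49% in 13q21.33 to 44.3% in 13q21.32, with 30.2% in 13q21.31 and 28.1% in 4q28.3. H3K9ac covered 6.07%, 5.996% and 8.03% of the stretches at noDox, 2d-Dox and 7d-Dox, against 10.4%, 10.8% and 12.4% of the rest of the genome. H3K27ac covered 3.99%, 3.51% and 2.64%, against 10.2%, 8.52% and 7.36% of the rest. Both H3 marks were scarcer in the stretches than elsewhere at every time.

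**Figure D1:**
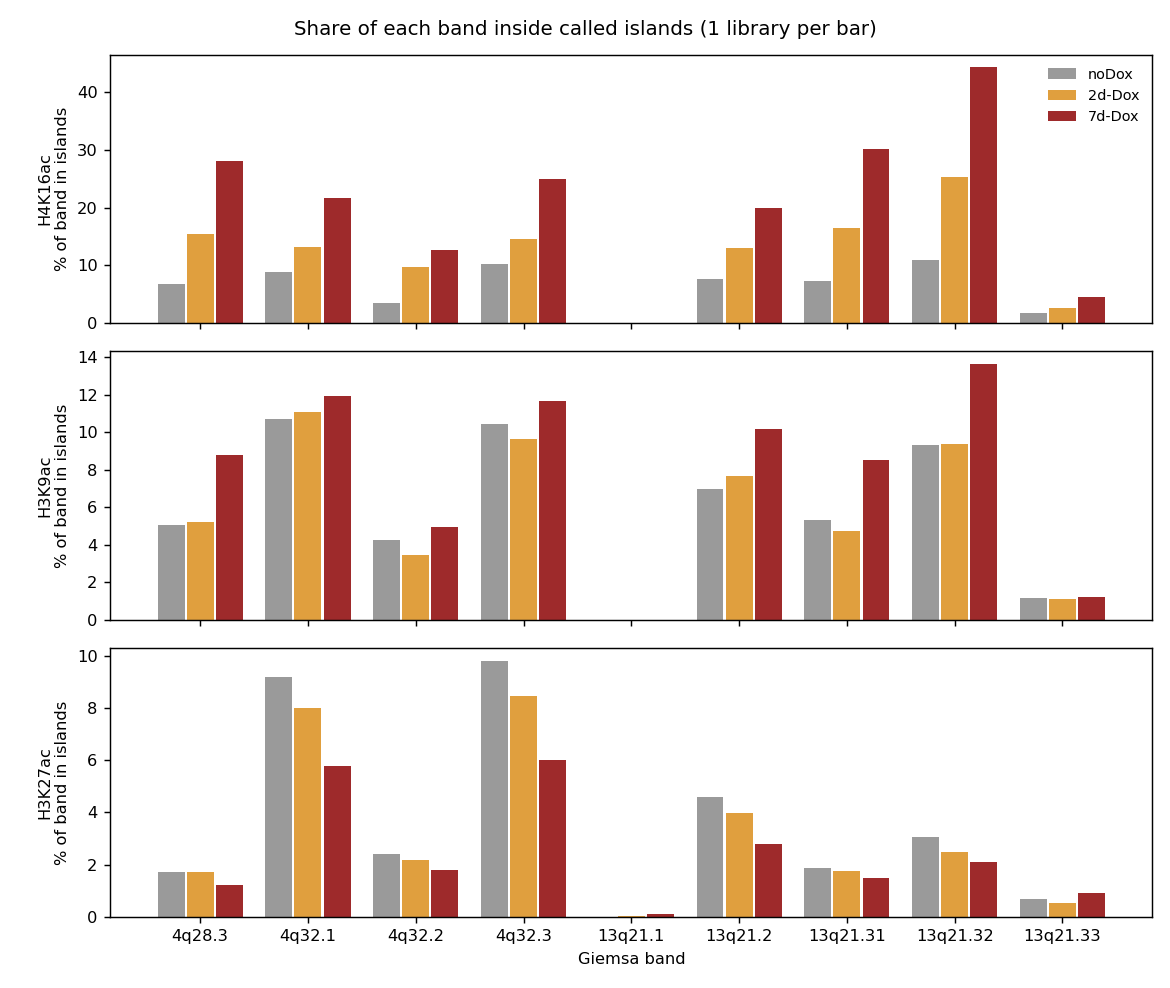
Percent of each Giemsa band of the stretches inside called islands (y axis) for H4K16ac, H3K9ac and H3K27ac (rows), with 1 bar per library, coloured by time. H4K16ac bars are taller at 2d-Dox and 7d-Dox than in noDox in every band but the empty 13q21.1, reaching 44.3% in 13q21.32, while H3K27ac is mostly in 4q32.1 and 4q32.3.

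Summed H4K16ac levels were higher after doxycycline in all 3 stretches. Over all of them the level was 14917 in noDox, 24314 at 2d-Dox and 31289.5 at 7d-Dox. These were 1.63-fold (interval 1.61 to 1.65) and 2.10-fold (2.07 to 2.12) the noDox level, against 1.05-fold and 1.42-fold in the rest of the genome and 1.36-fold and 1.75-fold in the other darkest bands. The 2d-Dox library was 1.22 times and the 7d-Dox library 3.11 times the size of that of noDox. On the log2 scale the stretches stood above the rest by 0.64 at 2d-Dox and 0.56 at 7d-Dox. The bands were selected with such H4K16ac changes known, and the part of depth in these ratios was not tested.

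The stretches differed among themselves in H4K16ac. In 4q28.3 the levels at noDox, 2d-Dox and 7d-Dox were 3095, 6142 and 8236, which is 1.98-fold and 2.66-fold the noDox level. In 13q21 they were 4831, 8687 and 11378, or 1.80-fold and 2.36-fold. In 4q32 they were 6991, 9486 and 11675, or 1.36-fold and 1.67-fold. The ratios of 4q32 were thus close to those of the other dark bands, and those of 4q28.3 and 13q21 were higher.

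The change was further concentrated by band. Of the bands with at least 50 reads, 4q32.2 had the highest H4K16ac ratio of 762 at 2d-Dox, with levels of 528, 1293 and 1305 at noDox, 2d-Dox and 7d-Dox (2.45-fold and 2.47-fold). Bands 13q21.32, 4q28.3 and 13q21.31 ranked 9, 10 and 11 at 2d-Dox and 8, 9 and 7 of 770 at 7d-Dox. In 13q21.32 the levels were 1785, 3544 and 4758 (1.99-fold and 2.67-fold), and in 13q21.31 they were 1366, 2704 and 3682 (1.98-fold and 2.70-fold). The other bands were lower: 13q21.2 reached 1.498-fold and 1.80-fold (ranks 76 and 115), 13q21.33 1.32-fold and 1.60-fold, 4q32.1 1.33-fold and 1.63-fold, 4q32.3 1.21-fold and 1.58-fold. Staining did not separate them, since 4q32.2 and 13q21.32 are light bands and 4q28.3 is among the darkest.

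The bands just outside the stretches overlapped in H4K16ac ratio with the lower bands inside them. H4K16ac at 2d-Dox and 7d-Dox was 1.34-fold and 1.66-fold the noDox level in 4q28.2, 1.197-fold and 1.62-fold in 4q31.1, 1.29-fold and 1.62-fold in 4q31.3, and 1.45-fold and 1.498-fold in 4q33. In 13q22.1 it was 1.46-fold and 1.78-fold. In 13q14.3, which adjoins the empty 13q21.1, it was 0.524-fold and 0.508-fold, on 384, 245 and 607 reads at noDox, 2d-Dox and 7d-Dox. All 6 outer bands thus lay below 4q28.3, 4q32.2, 13q21.31 and 13q21.32 at both times, but 13q22.1 lay above 4q32.1, 4q32.3 and 13q21.33 at both times and 4q33 above them at 2d-Dox. The borders of 4q32 and 13q21 were thus not the edges of the higher ratios, and 13q14.3 went the other way. For 4q28.3 the bands on both sides, 4q28.2 and 4q31.1, had lower ratios at both times.

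**Figure D2:**
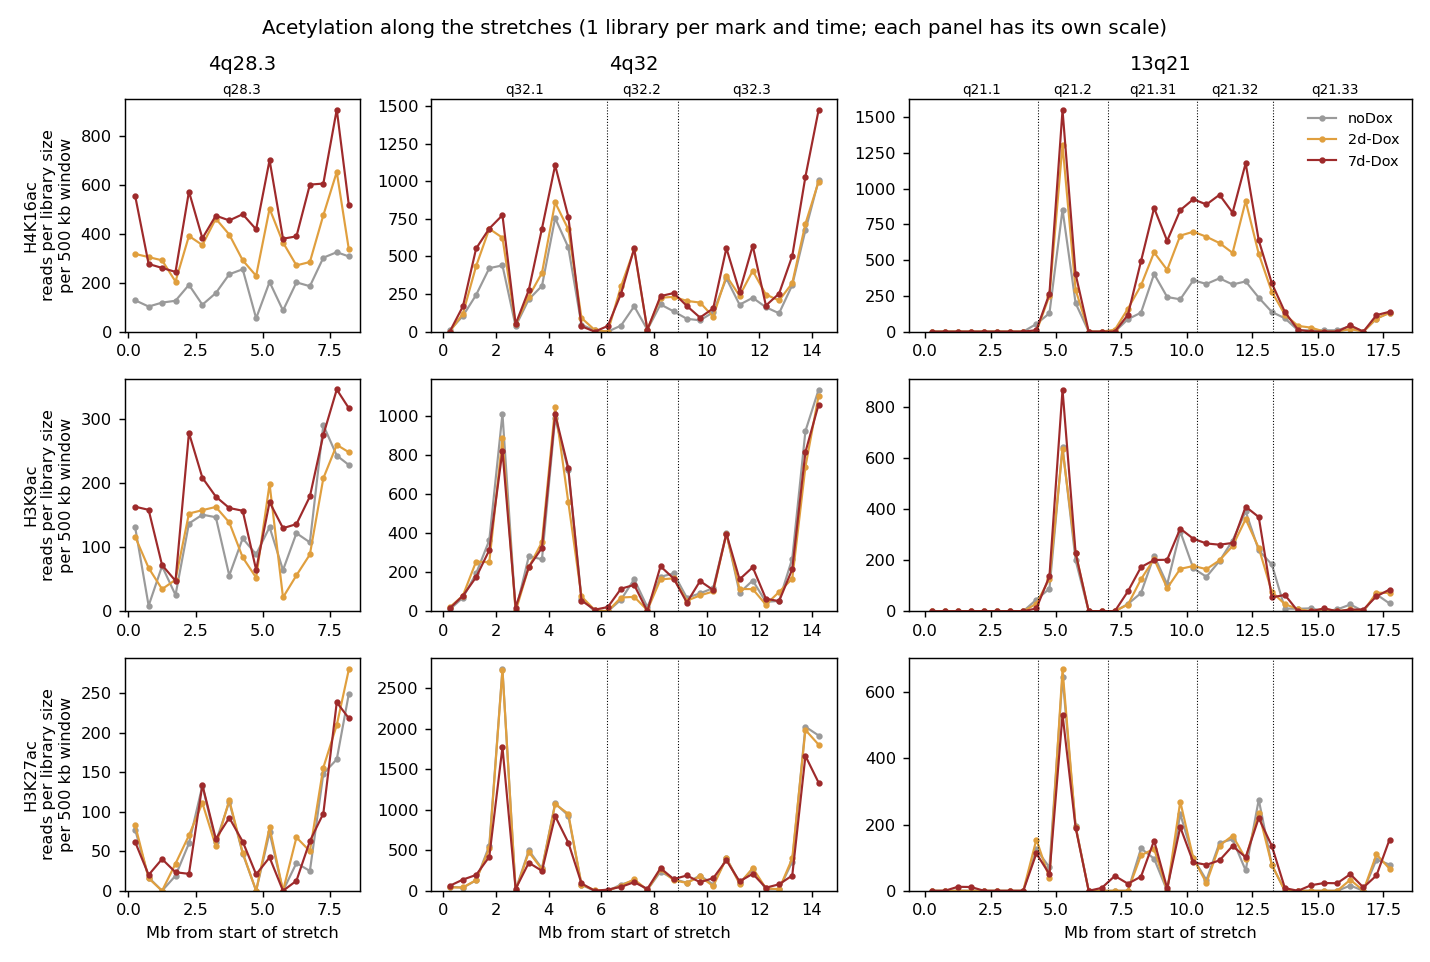
Reads per library size in 500 kb windows (y axis, own scale per panel) against distance from the start of each stretch (x axis, Mb), with marks in rows and stretches in columns; each line is 1 library and dotted lines are band borders. H4K16ac in noDox lies below both doxycycline libraries in all 17 windows of 4q28.3 and over most of q21.31 and q21.32. H3K27ac has its highest window in q32.1 (2729 in noDox). Windows of q21.1 are close to 0 for every mark except the last, which runs past the border into q21.2.

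Windows of 500 kb showed how widely the H4K16ac difference was spread. Of 65 windows with islands in both libraries, 59 were higher at 2d-Dox than in noDox, against 56.2% of such windows over the whole genome. At 7d-Dox 61 of 64 were higher, against 85.8% genome-wide. All 17 windows of 4q28.3 were higher at both times, with a lowest, median and highest level of 54.5, 186 and 325 in noDox, 205, 336 and 654 at 2d-Dox, and 245, 475 and 910 at 7d-Dox. In 4q32, 24 of 27 windows were higher at 2d-Dox and 24 of 26 at 7d-Dox, and in 13q21, 18 of 21 and 20 of 21. The plot of windows along the stretches shows the 13q21 difference as broad, running across 13q21.31 and 13q21.32.

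More H4K16ac sequence was called after doxycycline, and reads per kb of island were lower. The islands differed in extent between libraries, so these values do not show whether signal on the same bases was denser. H4K16ac islands in the stretches spanned 2.62 Mb in noDox, 4.97 Mb at 2d-Dox and 8.51 Mb at 7d-Dox, which is 1.89-fold and 3.24-fold, against 1.203-fold and 2.11-fold in the rest of the genome. Reads per library size per kb of island were 5.69, 4.89 and 3.68, and in the rest of the genome 6.03, 5.24 and 4.05. Median island length was 2000, 2800 and 4800 bp. Islands of 20 kb or more numbered 0, 1 and 25. After scaled HRP reads were subtracted, the ratios of the summed levels were 1.505-fold and 1.53-fold, against 0.963-fold and 1.08-fold in the rest of the genome. Where an island in noDox and one at a later time overlapped each other by at least 80%, the median log2 ratio was 0.028 over 35 pairs at 2d-Dox and -0.26 over 27 pairs at 7d-Dox, against -0.098 and -0.34 genome-wide. HRP reads per kb of H4K16ac island were 1.75, 1.76 and 1.81 in the stretches and 1.85, 1.89 and 1.91 in the rest, so control signal per kb moved little.

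Most H4K16ac sequence at 7d-Dox lay outside the islands of noDox, as it had to with 8.51 Mb called against 2.62 Mb. Islands of noDox covered 19.6% of the bases called at 7d-Dox in the stretches, against 34.0% in the rest of the genome. Called length limits both shares, at 3.24-fold that of noDox in the stretches and 2.11-fold in the rest. The 7d-Dox library was 3.11 times the size of that of noDox. In the other direction, islands at 7d-Dox covered 63.2% of the bases called in noDox, against 71.7% in the rest. Islands that touched across the 3 lists were merged into 1921 H4K16ac regions. Of these 443 (23.1%) had an island at all 3 times, against 30.3% of such regions over the whole genome. Another 301 (15.7%) had one at both doxycycline times but not in noDox, against 9.89% genome-wide, and 234 (12.2%) only in noDox, against 18.1%. Regions only at 2d-Dox numbered 343 (17.9%), against 10.9% genome-wide, and those only at 7d-Dox 363 (18.9%), against 15%. Regions only at 7d-Dox had a median of 98 reads and those at all 3 times 246 reads there.

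H3K9ac changed less than H4K16ac and in a different order over time. Its summed level over the stretches was 13499 in noDox, 12627 at 2d-Dox and 15128 at 7d-Dox. That is 0.935-fold (0.923 to 0.948) and 1.12-fold (1.11 to 1.13) the noDox level, against 1.01-fold and 1.04-fold in the rest of the genome. The level at 2d-Dox was thus slightly lower and that at 7d-Dox slightly higher than in noDox. Called length was 0.988-fold and 1.32-fold that of noDox, against 1.04-fold and 1.19-fold in the rest. Reads per library size per kb of island were 5.44, 5.15 and 4.61 at noDox, 2d-Dox and 7d-Dox, so per kb the 7d-Dox library was the lowest (0.847-fold noDox, against 0.873-fold in the rest). Libraries were 1.37 and 1.60 times the size of that of noDox.

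The higher H3K9ac level at 7d-Dox lay in 4q28.3 and 13q21 and not in 4q32. In 4q28.3 the levels were 2117, 2098 and 3046 at noDox, 2d-Dox and 7d-Dox, or 0.991-fold and 1.44-fold, which put the band at rank 17 of 776 at 7d-Dox. In 13q21 they were 3462, 3309 and 4362, or 0.956-fold and 1.26-fold. In 4q32 they were 7919.8, 7220.1 and 7720.2, or 0.912-fold and 0.975-fold. Between 7d-Dox and 2d-Dox, whose library sizes differ by 1.17-fold, the ratio was 1.45 (1.41 to 1.49) in 4q28.3, 1.32 (1.29 to 1.35) in 13q21, 1.07 (1.05 to 1.09) in 4q32 and 1.03 in the rest of the genome. Within 13q21 the 7d-Dox ratios over noDox were 1.27-fold in 13q21.2, 1.36-fold in 13q21.31, 1.24-fold in 13q21.32 and 0.980-fold in 13q21.33. The bands with the higher H3K9ac at 7d-Dox included 3 with the higher H4K16ac, and 4q32.2 was not among them, at 1.06-fold (0.996 to 1.12).

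The higher H3K9ac sums at 7d-Dox went with more called sequence. In 4q28.3 the number of H3K9ac islands was 149, 199 and 237 and their length 0.423, 0.439 and 0.739 Mb at noDox, 2d-Dox and 7d-Dox. Of the 51 regions of 4q28.3 called in both noDox and 7d-Dox with 50 or more reads at one time, none was 2-fold higher and 1 (1.96%) was 2-fold lower, with a median log2 ratio of -0.071. In 13q21, 8 of 98 (8.16%) were 2-fold higher and 5 (5.102%) lower, with a median of 0.040. Over the whole genome 6.42% were higher and 6.28% lower, with a median of 0.0036. Of 1527 H3K9ac regions in the stretches, 284 (18.6%) were listed at all 3 times and 377 (24.7%) only at 7d-Dox, against 37.1% and 13.5% genome-wide. Of the H3K9ac islands in noDox, 55.5% overlapped one at 7d-Dox in the stretches, against 74.2% in the rest of the genome. The share listed again was lower in the stretches.

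H3K27ac was concentrated in 4q32, where its summed level was lower and its level per kb higher at 7d-Dox. Over the stretches its level was 16178.5 in noDox, 16229 at 2d-Dox and 13647 at 7d-Dox, or 1.00-fold (0.992 to 1.01) and 0.844-fold (0.830 to 0.857), against 0.930-fold and 0.983-fold in the rest of the genome. Of this, 12421, 12245 and 9871 lay in 4q32, or 0.986-fold and 0.795-fold. Called length in 4q32 was 0.869-fold and 0.629-fold that of noDox, and reads per library size per kb were 10.5, 11.9 and 13.3 at noDox, 2d-Dox and 7d-Dox. The direction per kb was thus the reverse of that of the sum, at 1.13-fold and 1.26-fold, against 1.11-fold and 1.36-fold in the rest of the genome. Over all 3 stretches reads per kb were 9.91, 11.3 and 12.7. By band the 7d-Dox ratio of the sums was 0.754-fold in 4q32.1, 1.017-fold in 4q32.2 and 0.818-fold in 4q32.3 (per kb 1.196-fold, 1.35-fold and 1.33-fold), and by its sum 4q32.1 ranked 771 of 785 bands. In 4q28.3 the levels were 1227, 1379 and 1216, and in 13q21 they were 2531, 2605 and 2560.2. The 7d-Dox library was 0.375 times the size of that of noDox. The adjoining 4q33 had a ratio of 0.759-fold at 7d-Dox, so the lower sum ran past the end of the stretch.

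The sparse band 13q21.33 went the other way in summed H3K27ac. It held 9 islands with 937 reads in noDox, 12 with 825 at 2d-Dox and 27 with 623 at 7d-Dox. The level was 235, 262 and 418, or 1.77-fold (1.60 to 1.97) at 7d-Dox, which ranked 7 of 785. The fullest of its islands lay at chromosome 13, 72863801 to 72870000, with 106 reads at 7d-Dox. Many of the others were thin: H3K27ac regions listed only at 7d-Dox, 237 of 605 (39.2%) in the stretches against 32% genome-wide, had a median of 16 reads and 1000 bp, and 42.6% of them had no HRP read. H3K27ac islands at 7d-Dox appeared in 28 of the 36 windows of 13q21, against 17 in noDox. The smallest island of a whole H3K27ac list had 23 reads in noDox and 11 at 7d-Dox.

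**Figure D3:**
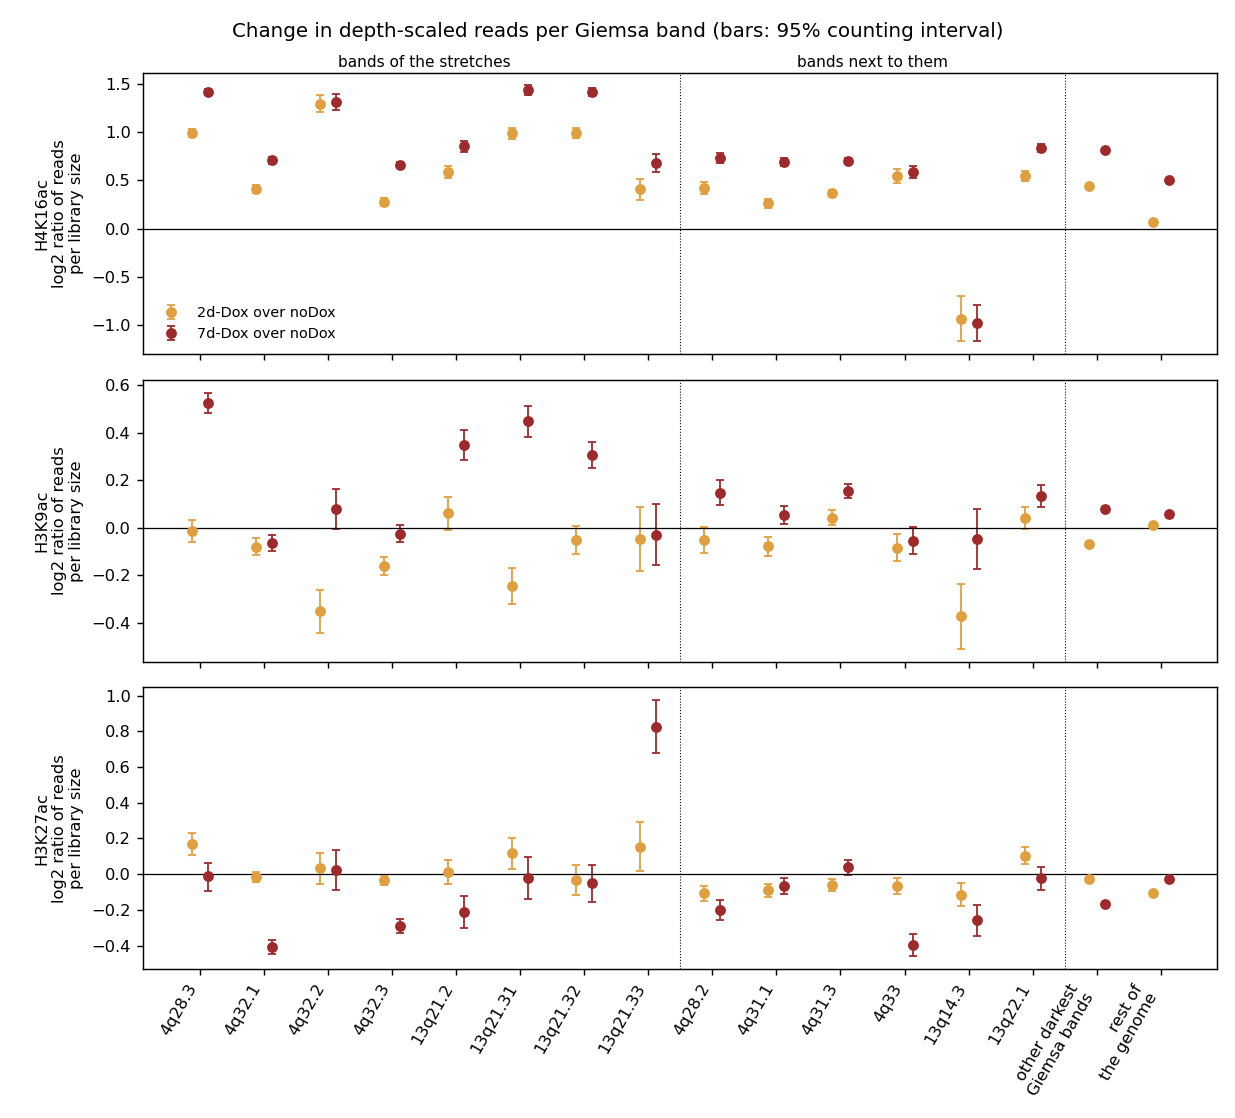
Log2 ratio of summed reads per library size over noDox (y axis) for the bands of the stretches, the bands next to them, the other darkest Giemsa bands and the rest of the genome (x axis), with bars for the 95% counting interval and 1 library per point. H4K16ac is highest in 4q28.3, 4q32.2, 13q21.31 and 13q21.32 and below 0 in 13q14.3; H3K9ac stands above the rest at 7d-Dox in 4q28.3 and 13q21.2 to 13q21.32; H3K27ac is below 0 at 7d-Dox in 4q32.1 and 4q32.3 and at 0.83 in 13q21.33.

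Single regions were compared where a mark was called at both times and had 50 or more reads at one of them. For H4K16ac, 127 of 351 such regions in the stretches (36.2%) were at least 2-fold higher at 2d-Dox and 18 (5.13%) at least 2-fold lower. Over the whole genome 20% were 2-fold higher and 10.7% lower. At 7d-Dox 231 of 594 (38.9%) were higher and 9 (1.52%) lower, against 22.9% and 2.38% genome-wide. By stretch 32 of 80 regions were higher at 2d-Dox in 4q28.3, 40 of 146 in 4q32 and 55 of 125 in 13q21, and at 7d-Dox 62 of 151, 72 of 235 and 97 of 208. The median log2 ratio was 0.70 at 2d-Dox and 0.76 at 7d-Dox, against 0.24 and 0.43 genome-wide. Per kb of island no region was 2-fold higher at either time, and the medians were -0.20 and -0.62, against -0.20 and -0.58 genome-wide.

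The largest H4K16ac rises by this measure fell in 13q21.31, 13q21.32 and 4q28.3. At chromosome 13, 66089801 to 66111800, there were 29 reads over 1800 bp in noDox, 292 over 20000 bp at 2d-Dox and 544 over 18000 bp at 7d-Dox, a log2 ratio of 3.05 (2.49 to 3.65) at 2d-Dox. At 67521001 to 67543200 there were 21, 200 and 617 reads, or 2.97 (2.32 to 3.69) and 3.24 (2.61 to 3.94). At 67261001 to 67286600 there were 32, 288 and 790 reads, with 2.89 (2.36 to 3.46) at 2d-Dox. The other rises at 7d-Dox were at 4q28.3 (chromosome 4, 133486001 to 133504600), with 16, 129 and 439 reads and 3.14 (2.42 to 3.96), and at 13q21.31 (chromosome 13, 64980601 to 65000000), with 19, 148 and 487 reads and 3.04 (2.38 to 3.79). Each began as an island of at most 2400 bp and both ratios of a region rest on the same low noDox count. Per kb of island these regions were between -1.72 and 0.060 on the log2 scale.

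The named H4K16ac falls were smaller, and most of those at 2d-Dox were not seen at 7d-Dox. The largest at 2d-Dox, at 4q32.1 (chromosome 4, 159495201 to 159510400), had 108 reads in noDox, 30 at 2d-Dox and 379 at 7d-Dox, or levels of 42.6, 9.72 and 48.1. At 4q32.3 (169650401 to 169679600) the levels were 88.5, 24.96 and 95.9. Both were thus close to the noDox level at 7d-Dox. The other, at 13q21.32 (67192001 to 67195800), had levels of 26.1, 7.46 and 13.8. At 7d-Dox the largest falls were at 4q32.1 (159933001 to 159939800), with 36.7, 16.5 and 9.64 and a log2 ratio of -1.93 (-2.39 to -1.48), at 4q32.1 (160293201 to 160298400), at -1.66, and at 13q21.31 (65127601 to 65136400), at -1.58.

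**Figure D4:**
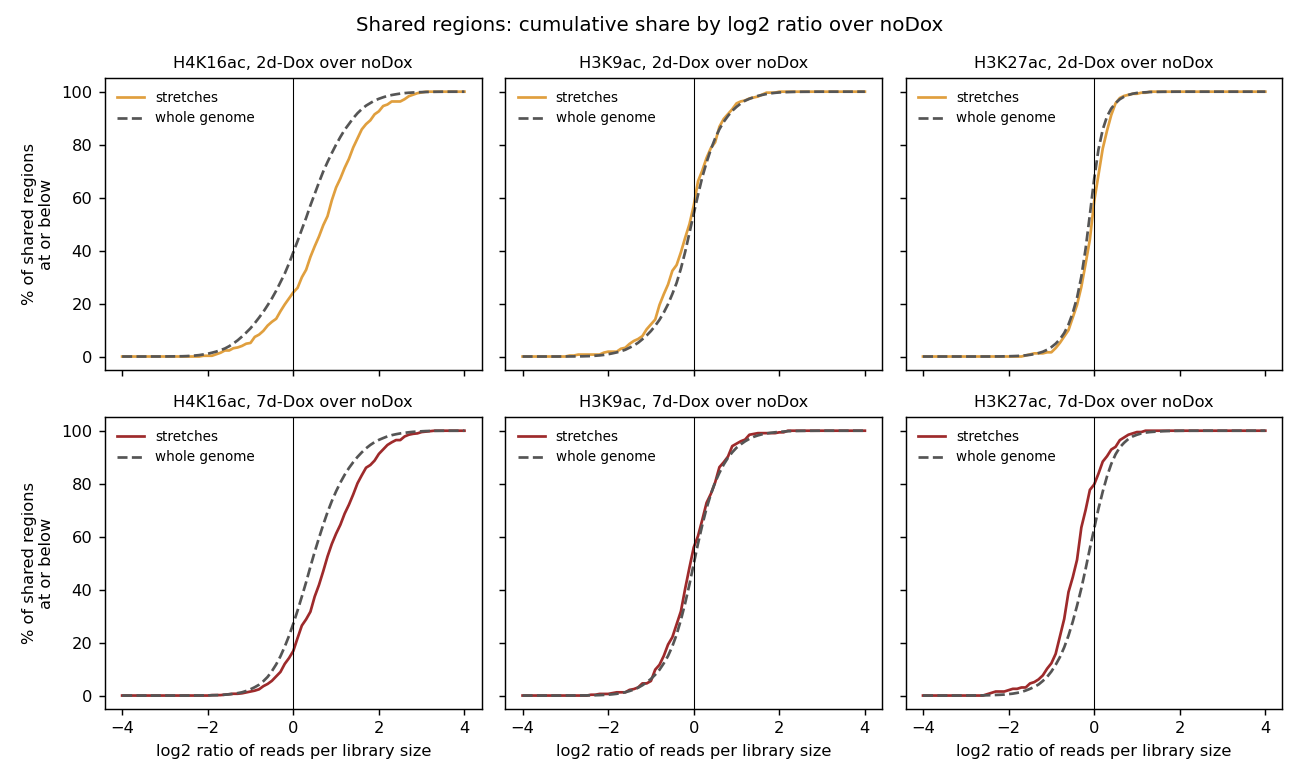
Cumulative percent of shared regions (y axis) by log2 ratio of reads per library size over noDox (x axis), for regions of the stretches (solid) and of the whole genome (dashed), by mark (columns) and time (rows). The H4K16ac curves of the stretches lie to the right of the genome at both times, with medians of 0.70 and 0.76 against 0.24 and 0.43, the H3K9ac curves lie close together, and the H3K27ac curve at 7d-Dox lies to the left, with a median of -0.42 against -0.17.

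For H3K9ac the shares were near the genome's. At 2d-Dox 12 of 272 regions (4.41%) were at least 2-fold higher and 33 (12.1%) lower, against 5.73% and 9.63% genome-wide. At 7d-Dox 16 of 327 (4.89%) were higher and 18 (5.50%) lower, against 6.42% and 6.28%. The named rises lay in 13q21. At 13q21.2 (chromosome 13, 60547401 to 60557200) the reads were 31, 88 and 218 at noDox, 2d-Dox and 7d-Dox, a log2 ratio of 2.13 (1.59 to 2.73) at 7d-Dox, and at 60473401 to 60484600 they were 34, 138 and 234, or 2.10 (1.58 to 2.67). At 60510401 to 60519400, between these, they were 36, 153 and 140, or 1.63 (1.10 to 2.20) at 2d-Dox. At 13q21.32 (67273601 to 67281800) they were 25, 106 and 153, or 1.63 and 1.93, inside the H4K16ac region above at 67261001 to 67286600. At 67705201 to 67715200 they were 26, 142 and 39, a rise of 2.00 at 2d-Dox that was gone at 7d-Dox.

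The named H3K9ac falls all lay in 4q32. At 4q32.3 (chromosome 4, 169580201 to 169591000) H3K9ac had 177 reads in noDox, 32 at 2d-Dox and no island at 7d-Dox, and at 4q32.2 (164441801 to 164453400) it had 134, 119 and 38 reads, a log2 ratio of -2.50 (-3.06 to -1.97) at 7d-Dox. At 4q32.1 (160252801 to 160268200) it had 128, 26 and 165 reads, so that fall was present at 2d-Dox only. The others, all at 4q32.1, were at 157309001 to 157313200 with 78, 24 and 0 reads, at 157723801 to 157733600 with 159, 118 and 54, and at 157749601 to 157755600 with 85, 0 and 35, where 0 means that no island was listed. Those at 157723801 and 157749601 lie inside and beside the second fullest locus of the stretches, described below.

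H3K27ac regions at least 2-fold higher were few, and those at least 2-fold lower were more frequent at 7d-Dox. At 2d-Dox 2 of 251 (0.797%) were higher and 4 (1.59%) lower, against 0.48% and 3.55% genome-wide. At 7d-Dox 1 of 197 (0.508%) was higher and 24 (12.2%) lower, against 1.53% and 9.07%, and 157 of the 197 were lower by any amount, against 63% genome-wide. The median log2 ratio at 7d-Dox was -0.42, against -0.17 genome-wide, and per kb of island it was 0.29, against 0.46.

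The largest H3K27ac falls at 7d-Dox were at 13q21.32 (chromosome 13, 66485601 to 66491600), with 304, 173 and 20 reads and levels of 76.4, 55.0 and 13.4, at 4q32.3 (chromosome 4, 170016001 to 170030800), with levels of 72.1, 66.1 and 13.4, and at 13q21.2 (60723201 to 60733400), with 47.7, 27.3 and 9.39. Their log2 ratios were -2.51 (-3.24 to -1.86), -2.43 (-3.16 to -1.77) and -2.35 (-3.24 to -1.56), and all were lower per kb too. The largest rise at 7d-Dox, at 4q32.3 (chromosome 4, 165088601 to 165092200), had 67, 50 and 54 reads and a log2 ratio of 1.11 (0.56 to 1.64). That region kept the same called length of 2600 bp in noDox and 7d-Dox. At 2d-Dox the largest falls were at 4q32.1, at 157822201 to 157832000 with 162, 42 and 0 reads, at 157912001 to 157918000 with 109, 29 and 0, and at 159712601 to 159719600 with 131, 39 and 29. The first 2 lie on either side of the fullest locus of the stretches and had no island at 7d-Dox. The largest rise at 2d-Dox, at 13q21.32 (chromosome 13, 66379601 to 66383400), had 45, 84 and 0 reads, a log2 ratio of 1.24 (0.70 to 1.80).

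The loci with the most reads per library size, summed over all lists, were clustered and mostly in 4q32. This sum joins antibodies of unlike reads per kb of island, with H3K27ac the highest. It therefore does not rank acetylation across marks. All islands of the 9 lists that touched formed 2118 loci, and of the 10 with the most reads per library size, 9 were in 4q32 and 1 in 13q21.2. The first, at 4q32.1 (chromosome 4, 157849601 to 157905200), had H3K27ac levels of 1243, 1303 and 968 at noDox, 2d-Dox and 7d-Dox. Its H3K9ac levels were 401, 321 and 308 and its H4K16ac levels 22.9, 38.6 and 53.2. H3K27ac thus had the highest level by far, over up to 53400 bp, while H4K16ac covered 3400, 8000 and 16400 bp. The second, at 157682201 to 157739600 in the same band, had H3K27ac levels of 615, 636 and 374, H3K9ac levels of 172, 162 and 119 and H4K16ac levels of 75.4, 91.1 and 93.1. In both, H3K27ac and H3K9ac were lowest and H4K16ac highest at 7d-Dox.

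Of the 10 loci, 5 lay in 4q32.3 close together near its distal end. They were at chromosome 4, 169415401 to 169487400, 169548801 to 169578800, 169746001 to 169795800, 169799801 to 169852200 and 170013601 to 170066800. Their H3K27ac levels ran from 186 to 529 in noDox, 161 to 498 at 2d-Dox and 114 to 444 at 7d-Dox. All 5 had their lowest H3K27ac level at 7d-Dox. The locus at 169548801 to 169578800 had the highest H3K27ac of these, with 529, 498 and 444. Another pair lay side by side at 4q32.1 (159681401 to 159738400 and 159739001 to 159800400); the first had H3K27ac levels of 412, 408 and 303, and the second had the opposite order, with 106, 112 and 144.

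The only one of the 10 outside 4q32 was at 13q21.2 (chromosome 13, 60316801 to 60393200), and at 76400 bp it was the longest locus of the stretches. H4K16ac there was 244, 242 and 301 at noDox, 2d-Dox and 7d-Dox, H3K9ac 124, 127 and 190, and H3K27ac 250, 252 and 158. H4K16ac had the highest level of the 3 marks there at 7d-Dox. The same held on chromosome 4 at 159739001 to 159800400, 169799801 to 169852200 and 170013601 to 170066800. The last had H4K16ac levels of 203, 165 and 204 and H3K27ac levels of 301, 227 and 115. Levels of different marks come from different antibodies and libraries of unlike depth. The 500 kb window that holds the 13q21.2 locus was the fullest for H4K16ac in all stretches at 2d-Dox and 7d-Dox, with 1305 and 1548.

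The fullest regions of single marks all lay in 4q32. In 4q32 alone the H3K9ac sum changed by -0.13 and -0.037 on the log2 scale at 2d-Dox and 7d-Dox. The H3K27ac sum there changed by -0.021 and -0.33, and the H4K16ac sum by 0.44 and 0.74. Sums set against the regions below are those of all 3 stretches, which differ from these. The 5 fullest H3K9ac regions, in 4q32.1 and 4q32.3, were lower at both times, with log2 ratios from -0.38 to -0.20 at 2d-Dox and from -0.24 to -0.16 at 7d-Dox, against -0.096 and 0.16 for the H3K9ac sum of the stretches. The 5 fullest H3K27ac regions, in the same bands, were within -0.087 to 0.067 at 2d-Dox and between -0.83 and -0.25 at 7d-Dox, against 0.0045 and -0.25 for the sum. The 5 fullest H4K16ac regions were between -0.10 and 0.88 at 2d-Dox and between 0.21 and 1.14 at 7d-Dox, against 0.70 and 1.07 for the sum. One of these, at 4q32.2 (chromosome 4, 164025801 to 164073800), had H4K16ac levels of 130, 160 and 208, the highest level of the 5 at 7d-Dox, over 22000, 28800 and 47000 bp.

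The 89 loci with an island in all 9 lists formed a common core, 60 of them in 4q32, 20 in 13q21 and 9 in 4q28.3. They held 65.9%, 64.4% and 58.0% of the stretches' H3K27ac reads at noDox, 2d-Dox and 7d-Dox. Of H3K9ac they held 45.9%, 42.6% and 37.5%, and of H4K16ac 26.9%, 20.2% and 20.5%. The core thus carried most H3K27ac and a minor part of H4K16ac. Its definition sets part of this, since a core locus must hold H3K27ac, the mark with the fewest islands, at every time. It must also hold H4K16ac in noDox, so loci with H4K16ac called only after doxycycline were left out of the ratios that follow. The core's H4K16ac sum changed by 0.29 and 0.68 on the log2 scale at 2d-Dox and 7d-Dox, below the 0.70 and 1.07 of the stretches as a whole. For 4q32, where 60 of the 89 loci lie, the sum of all H4K16ac islands changed by 0.44 and 0.74, closer to the core. The core's H3K9ac changed by -0.20 and -0.13, and its H3K27ac by -0.029 and -0.43, lower in 74 of the 89 loci at 7d-Dox.

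Most of the 2118 loci, the core included, carried H4K16ac without H3K27ac. Of them, 824 (38.9%) had H4K16ac islands alone, 587 (27.7%) H3K9ac and H4K16ac, 280 (13.2%) all 3 marks, 200 H3K9ac alone and 133 H3K27ac alone. Such shares were not taken over the rest of the genome, so they cannot be called particular to the stretches. The share with H4K16ac alone was 45.5% in 4q28.3, 34.7% in 4q32 and 37.3% in 13q21. All 3 marks met in 7.04%, 19.4% and 12.02% of loci in the same order. Loci listed only once numbered 879 (41.5%), with a median length of 2200 bp, against 19200 bp for the core.

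A smaller share of H4K16ac and H3K9ac islands met an H3K27ac island of the same time in the stretches than elsewhere. Of H4K16ac islands 19.1%, 15.9% and 17.0% overlapped an H3K27ac island at noDox, 2d-Dox and 7d-Dox, against 38.5%, 37.0% and 45.2% in the rest of the genome. The stretches differed in this, with 6.51% in 4q28.3, 30.4% in 4q32 and 12.6% in 13q21 in noDox. Of H3K9ac islands 36.5%, 32.05% and 25.7% overlapped H3K27ac, against 58.0%, 50.3% and 52.0%. H4K16ac islands met H3K9ac in 32.9%, 34.8% and 44.2% of cases, against 52.9%, 63.0% and 64.6%. Seen from H3K9ac the shares were closer at the doxycycline times: 47.0%, 55.7% and 73.2% of H3K9ac islands overlapped H4K16ac, against 59.3%, 56.5% and 74.5% in the rest. H3K27ac itself was scarcer in the stretches, and seen from its islands the shares were also closer. Of these 53.5%, 54.5% and 51.5% overlapped H4K16ac, against 59.1%, 50.7% and 56.5% in the rest. H3K9ac was met by 71.8%, 68.5% and 48.1% of H3K27ac islands, against 76.0%, 76.4% and 61.3%. Islands of 1 library are not replicates, and no test was made of these shares. The H3K27ac overlaps at 7d-Dox were set in the shallowest library and the H4K16ac overlaps in the deepest.

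Counted in bases, sequence called for H4K16ac alone made up 36.0% of the 5.03 Mb called for any mark in noDox. It made up 54.3% of 6.87 Mb at 2d-Dox and 62.0% of 9.99 Mb at 7d-Dox. Sequence with H3K9ac and H4K16ac made up 7.15%, 10.6% and 17.9%. Sequence with all 3 marks came to 300, 333 and 339.8 kb. In 4q28.3, H4K16ac alone took 49.2%, 68.5% and 70.6% of the called bases and all 3 marks 2.21%, 1.78% and 0.770%. These shares were not taken over the rest of the genome either, and the H4K16ac library at 7d-Dox was the deepest.

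**Figure D5:**
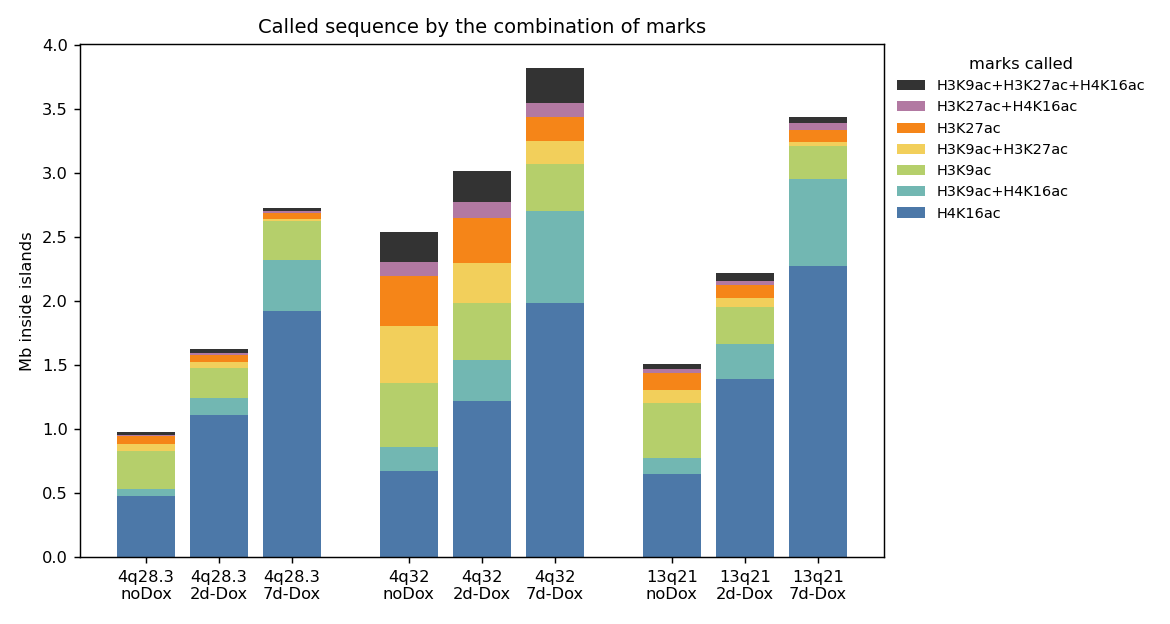
Sequence inside islands (y axis, Mb) for each stretch and time (x axis, 1 library per mark), split by which marks were called on the same bases. Sequence with H4K16ac alone, at the foot of each bar, rises with time in every stretch, to 70.6% of called bases in 4q28.3 at 7d-Dox, and sequence with all 3 marks is mostly in 4q32.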

How the data were processed

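CUT&RUN with antibodies to H3K9ac, H3K27ac and H4K16ac was analysed at noDox, 2d-Dox and 7d-Dox, with 1 library each. The submitters' processing notes name SICER, Bowtie2 2.3.5.1, deepTools, Picard, cutadapt and FastQC, and hg19 as the build. The sources used here do not state how duplicates were handled, the caller's settings or any spike-in. The deposited lists give, per the file headers, whole read counts of the antibody and HRP libraries per island, the authors' p-value and FDR, a log2 fold of antibody over HRP reads and a score. Tested on the files, the log2 fold differs from that of the raw counts by 1 constant per list, with 0.25 entered for 0 HRP reads; that constant gave the relative library size. The largest FDR per list was just under 0.05 and island lengths are multiples of 200 bp. The control library enters only as the HRP counts. All 10 samples were grouped by their labels.

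An island was assigned by its midpoint, and 1 island on no autosome or X was dropped. Bands came from the hg19 table in circlize 0.4.16. Touching islands were merged into regions (1 mark) and loci (all 9 lists). A region counted as shared if both libraries had an island and either had at least 50 reads, and as higher or lower past 2-fold. Overlap meant at least 1 bp. Named are, per mark, the 5 fullest regions and, per time, the 3 largest rises and falls among shared regions, and, over all lists, the 10 fullest loci and the 3 longest empty spans; "fullest" sums reads per library size over the times. With 1 library per mark and time no test between conditions was made; the steps were tested on simulated data. The stretches and naming rules were chosen with earlier results of these data known. Alternatives changed the scaling, the FDR limit, the HRP reads, the number of islands per list, the assignment, the read minimum, the joining of islands, the length basis and the overlap. Python 3.11.15, numpy 2.4.6, pandas 2.3.3 and SciPy 1.17.1 were used. No sequence is shown, as no hg19 genome was used here.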

Additional observations from a re-analysis of the deposited data

Results flagged for a closer look

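H3K9ac lay below noDox at 2d-Dox and above it at 7d-Dox. Over all 3 stretches the log2 ratio of depth-scaled reads over noDox was -0.096 at 2d-Dox and 0.16 at 7d-Dox, and in 13q21 alone it was -0.065 and 0.33. Both ratios use the same noDox library, each time has 1 library, and the difference between the times was not tested.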

How the results depend on the processing

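All comparisons rest on 1 library per mark and time, and island lists grow with depth: the H4K16ac library at 7d-Dox was the deepest and the H3K27ac library at 7d-Dox the shallowest. No paired analysis was possible because no condition has replicates, so leaving out a replicate was not possible either.

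Log2 ratios of depth-scaled reads over noDox in the stretches are given here for H3K9ac, H3K27ac and H4K16ac. Scaled by the reads in all islands, they were 0.11 at 2d-Dox for H3K27ac and 0.63 for H4K16ac, and 0.11, -0.22 and 0.56 for the 3 marks at 7d-Dox. With islands at an FDR of at most 0.001 they were -0.075 for H3K9ac and 0.73 for H4K16ac at 2d-Dox, and 0.21, -0.28 and 1.14 at 7d-Dox. Less scaled HRP reads they were 0.056 for H3K27ac and 0.59 for H4K16ac at 2d-Dox, and 0.11, -0.15 and 0.62 at 7d-Dox. With the same number of islands in each list of a mark they were -0.40, -0.072 and 1.00 at 2d-Dox, and 0.064, -0.66 and 1.46 at 7d-Dox. H3K27ac at 2d-Dox, at 0.0045 as reported, thus had either sign. The H4K16ac ratio of the stretches minus that of the rest of the genome ranged from 0.64 to 0.74 at 2d-Dox and from 0.51 to 0.67 at 7d-Dox over all settings for summed reads. Scaling by reads in islands shifts both sides alike and cannot change this difference. Per kb of island the H4K16ac ratio was -0.217 at 2d-Dox, against -0.203 in the rest, and -0.628 at 7d-Dox, against -0.574. The bands were selected with such H4K16ac changes known.

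Counts of shared regions at least 2-fold higher depended on the length basis. Per kb of island, 1 H3K9ac, 10 H3K27ac and 0 H4K16ac regions were higher at 2d-Dox and 0, 33 and 0 at 7d-Dox. By the same basis 4, 1 and 9 were lower at 2d-Dox and 6, 1 and 98 at 7d-Dox. With at least 100 reads, the higher ones at 2d-Dox were 7, 1 and 70, the lower ones 8 for H3K9ac and 5 for H4K16ac, and at 7d-Dox 0 H3K27ac regions were higher, 5 H3K9ac regions lower and 0 H4K16ac regions lower. Scaled by reads in islands, 116 H4K16ac regions were higher and 33 lower at 7d-Dox. With gaps of 2 kb joined, 5 H3K27ac regions were higher at 2d-Dox and 2 at 7d-Dox. The cause of these moves was not tested. Of the overlaps, 23 moved outside their interval under an alternative and 13 did not. Called length had no interval, so whether it moved could not be judged. Its log2 ratio for H4K16ac at 2d-Dox was 0.92 as reported, 0.95 at the stricter FDR and 1.24 with the same number of islands. For H3K9ac at 2d-Dox it was -0.017, 0.0081 and -0.36 in the same order.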
